A study of Homo sapiens with 3 samples.

Results

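The mRNAs of 10 secreted signalling proteins, the chemokines and cytokines encoded by IL8 (CXCL8 in current nomenclature), CXCL2, CXCL3, CCL3, CCL4, OSM, IL1B, CSF1, TGFB1 and MIF, were followed in a DDX6 eCLIP experiment. The 10 genes were taken by name from tables that hold 36817 gene identifiers, in every transcript region, and from the lists of DDX6 peaks. TNF, which had most exonic reads of all cytokines listed below in each library, was kept for comparison only. Of the 10, 9 had a row in the count tables. MIF was matched to no row there and is described from its peaks.

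The libraries came from MOLM-13, an established human acute myeloid leukaemia cell line grown in serum-containing medium, with no treatment or genetic change given in the labels. The eCLIP method fixes RNA to the proteins that touch it with ultraviolet light, digests what is unprotected and sequences what an antibody, here against DDX6, pulls down. There were 2 immunoprecipitation (IP) libraries, replicate 1 (IP1) and replicate 2 (IP2), and 1 input library made without the antibody. Sets of 3 values are given in the order IP1, IP2, input. The libraries held 4643494, 1244213 and 7807540 counted reads. Exonic reads made up 67.6%, 62.6% and 30.7% of them. The labels do not say whether IP1 and IP2 stem from different cultures, so the p-values rest on a spread that may be technical only. The myeloid label was met by the data, as 11 of 11 myeloid markers had at least 10 exonic input reads. Among the markers of other lineages matched to a row this held for 1 of 4 of T cells, 0 of 3 of B cells, 0 of 2 of erythroid cells, 0 of 4 of epithelial cells and 1 of 4 of endothelial cells and fibroblasts. CD3E and EPCAM had no exonic read in any library. Of the same lists, CD3D had 15, 3 and 15 exonic reads, KRT8 10, 0 and 3, KRT18 25, 3 and 8, and COL1A1 82, 10 and 27.

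Chemokines and inflammatory cytokines are made in bursts by myeloid cells. Their genes are switched on by factors such as NF-kappa-B, and many of the mRNAs carry AU-rich elements in the 3'UTR that recruit decay factors. DDX6 is a helicase that represses translation, promotes decapping and is required for P-bodies, the granules in which untranslated mRNA is stored. TGFB1 and MIF are made steadily by many cell types and stored or held latent as proteins.

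Promoters of the CXC chemokine genes and of CCL3 are shown because IL8, CCL3 and, with a limit given below, CXCL2 were called higher in the IP. CXCL3 was not tested and is shown beside its relative CXCL2. The eCLIP method measures RNA and says nothing of these DNA sites. RefSeq promoters of build GRCh38.p14 matched 7 of the 10 members, and those of CCL4, OSM and CSF1 were not used here. The 120 bases before the transcription start are given 5′ to 3′ on the gene's strand, with matches to GGAATTTCC, a kappa-B-type motif, and to TATAAA in capitals. They lie at chr4:73740449-73740568 (IL8, plus strand), chr4:74099196-74099315 (CXCL2, minus), chr4:74038690-74038809 (CXCL3, minus) and chr17:36090144-36090263 (CCL3, minus, the most upstream of 3 listed starts).
IL8: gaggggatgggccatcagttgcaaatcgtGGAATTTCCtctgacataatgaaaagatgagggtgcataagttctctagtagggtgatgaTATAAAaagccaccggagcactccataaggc
CXCL2: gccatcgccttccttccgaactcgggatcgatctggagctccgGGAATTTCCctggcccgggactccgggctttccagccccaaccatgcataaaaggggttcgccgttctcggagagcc
CXCL3: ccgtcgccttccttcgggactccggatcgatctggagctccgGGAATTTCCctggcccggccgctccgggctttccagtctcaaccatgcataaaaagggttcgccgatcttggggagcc
CCL3: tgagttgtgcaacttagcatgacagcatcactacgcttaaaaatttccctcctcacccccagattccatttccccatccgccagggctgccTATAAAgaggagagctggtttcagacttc

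The motif GGAATTTCC, searched on both strands in windows of 300 bases (250 before to 50 after the start), occurred in 3 of the 7 matched members, IL8, CXCL2 and CXCL3, with its leftmost base at -91, -77 and -78. It occurs in 0.461% of 35116 promoters. TATAAA occurred in IL8 (-31) and CCL3 (-29) and in 11.5% of promoters, and TGACTCA, an AP-1-type motif, in IL8 alone of the 7 (-137) and in 4.95% of promoters. Over the 120 bases CXCL2 and CXCL3 were identical at 108 of 122 aligned columns (88.5%), and IL8 and CXCL2 at 65 of 140 (46.4%). A match is a description of letters and does not show that a factor binds there.

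Among the members, exonic reads of IL8, CCL3 and OSM were higher in the DDX6 IP than in the input. CXCL2 was called higher too, with a limit given below. CCL4, CSF1 and TGFB1 passed the test in neither direction. The test was edgeR's quasi-likelihood test over 10392 genes with at least 10 exonic reads in at least 2 of the 3 libraries, and calls were made at a Benjamini-Hochberg threshold of 0.05. It called 1739 genes (16.7%) higher and 1188 (11.4%) lower. Of the 10 members, 7 were tested, 4 were called higher and 0 lower. CXCL2 passed the read filter through the IP libraries alone, so its call is not read as a result. Of the 6 tested members with at least 10 input reads, 3 were called higher and 0 lower. CXCL3, IL1B and MIF were not tested. The member median log2 fold was 1.29 and that of all tested genes 0.00, which describes the 7 tested members and not all 10; without CXCL2 the median of the other 6 was 0.84. In bulk RNA, fewer cells with a transcript and less of it per cell cannot be told apart.

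**Figure D1:**
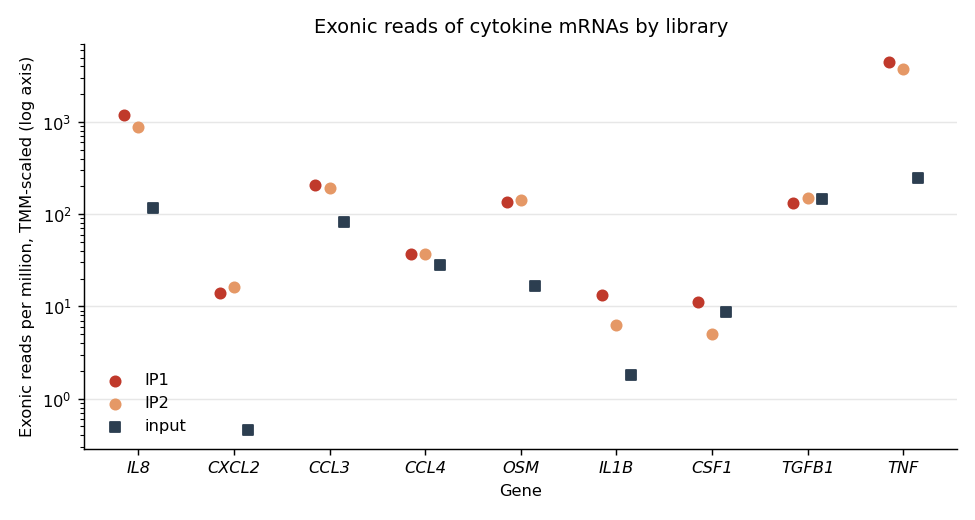
Exonic CPM (TMM-scaled, log axis) of 8 members and TNF in each library; circles are the IP libraries and squares the input. Both IP points lie above the input for IL8, CXCL2, CCL3, CCL4, OSM, IL1B and TNF, and the input lies between the IP points for CSF1 and TGFB1; heights are not scaled to length, so genes should not be compared with each other, and CXCL3, with 1 read, is left out.

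IL8 encodes interleukin-8, the CXC chemokine that draws neutrophils through CXCR1 and CXCR2. It had 3789, 703 and 257 exonic reads, or 1183, 887 and 116 CPM, a library's exonic counts scaled by TMM to a common total. Both IP libraries were thus far above the input. The fold was 8.92 (95% interval 5.45 to 14.6), a log2 fold of 3.16 (SE 0.36, edgeR adjusted p 4.68e-11), with 3.34 for IP1 and 2.92 for IP2. By fold IL8 ranked 53 of the 10392 genes, and TNF, at a log2 fold of 4.04, ranked 27.

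The coding sequence and 3'UTR of IL8 were called higher when regions were fitted separately, as was the 5'UTR, with a limit given below. In that region fit the zero is set by 28825 regions of all kinds, introns included, so its folds cannot be read against those of the gene fit. The 5'UTR had 385, 66 and 7 reads, and its log2 fold of 5.60 (SE 0.52, edgeR adjusted p 6.72e-24) ranked 5 of 2025 tested 5'UTRs, next to TNF at 6. With 7 input reads the IL8 5'UTR passed the read filter through the IP libraries alone, so its p and rank are not read as results. Its IP to input ratio was 54.5, with a counting interval of 26.2 to 136. The coding sequence had 1409, 259 and 52 reads and a log2 fold of 4.63 (SE 0.43, edgeR adjusted p 3.08e-23), which ranked 10 of 8169. The 3'UTR had 1995, 378 and 198 reads and a log2 fold of 3.22 (SE 0.40, edgeR adjusted p 1.08e-13), which ranked 26 of 7194. The 3'UTR therefore held most of the IL8 reads in every library while it had the smallest fold of the 3 exonic regions. As a background, 51.2% of coding sequences, 23.9% of 3'UTRs and 33.2% of 5'UTRs were called higher. The introns of IL8 had 88, 20 and 58 reads, a log2 fold of 0.62 (SE 0.41) short of the threshold (edgeR adjusted p 0.191), while 83.0% of tested introns were called lower. Scaling to library size alone called them higher (adjusted p 0.00517, within a range of 0.00517 to 0.698 over 5 alternatives).

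The make-up of the IL8 reads was close in the 2 IP libraries and different from the input. The 5'UTR held 10.2% (exact Clopper-Pearson 95% interval 9.22 to 11.2) and 9.39% (7.34 to 11.8) of the exonic IP reads and 2.72% (1.10 to 5.53) of the input reads. The 3'UTR held 52.7% (51.0 to 54.3) and 53.8% (50.004 to 57.5) of the IP reads and 77.0% (71.4 to 82.0) of the input reads. The IP intervals overlapped each other and none overlapped the input interval. Such intervals cover counting error only.

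CXCL2, a neutrophil chemokine that signals through CXCR2, was nearly absent from the input. It had 45 and 13 exonic reads in the IP libraries and 1 in the input, or 14.1, 16.4 and 0.452 CPM. With 1 input read the IP to input ratio was 32.1, with a counting interval of 5.54 to 1289. The edgeR adjusted p was 4.64e-05, which is not read as a result because the IP libraries alone passed the read filter. The 5'UTR of CXCL2 had 10 and 10 reads in the IP libraries and 0 in the input. Set against 3 input reads as a floor, IP1 was 3.55-fold higher and IP2 13.7-fold higher. With counting error in the IP reads, the lower 95% limits of the ratio to the input were 2.39 and 9.20. Its coding sequence had 13 reads in IP1 (4.62-fold above that floor, lower limit 3.25) and 0 in IP2 and the input. The libraries thus divided the CXCL2 reads differently, with 22.2% (11.2 to 37.1) and 76.9% (46.2 to 94.96) in the 5'UTR. CXCL3, its close relative, had 1 exonic read in IP1 and 0 in the others, too few for any fold. CXCL1, the remaining gene of that near-identical group, was matched to no row. How the authors counted reads that fit several genes is not given in the sources used here, so CXCL2 and CXCL3 values are uncertain.

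CCL3 and CCL4 encode the CC chemokines MIP-1-alpha and MIP-1-beta, which draw monocytes and T cells. CCL3 had 670, 152 and 182 exonic reads, or 209, 192 and 82.3 CPM. The IP libraries lay close to each other and above the input. The fold was 2.45 (95% interval 1.70 to 3.51), a log2 fold of 1.29 (SE 0.26, edgeR adjusted p 7.86e-05), and CCL3 ranked 853 of 10392. This gene-level value joins regions with unlike folds.

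The coding sequence of CCL3 was called higher, as was its 5'UTR, with a limit given below, and its 3'UTR was not called. The 5'UTR had 94, 33 and 7 reads and a log2 fold of 3.99 (SE 0.57, edgeR adjusted p 4.72e-11). With 7 input reads the CCL3 5'UTR passed the read filter through the IP libraries alone, so its p is not read as a result. Its IP to input ratio was 15.3, with a counting interval of 7.24 to 38.9. The coding sequence had 328, 69 and 28 reads and a log2 fold of 3.51 (SE 0.42, edgeR adjusted p 1.42e-14), which ranked 72 of 8169. The 3'UTR, with 248, 50 and 147 reads, had a log2 fold of 0.70 (SE 0.34, edgeR adjusted p 0.0692), and this one was called with other read filters (0.0138 with at least 30 reads). Over all 5 alternatives that adjusted p ran from 0.000421 to 0.574. The 3'UTR share of exonic reads was 37.0% (33.3 to 40.8) and 32.9% (25.5 to 41.0) in the IP and 80.8% (74.3 to 86.2) in the input. Introns of CCL3 had 29, 9 and 57 reads and a log2 fold of -0.80 (edgeR adjusted p 0.148).

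CCL4 had 119, 29 and 62 exonic reads, or 37.2, 36.6 and 28.05 CPM. At the gene level its log2 fold was 0.40 (SE 0.36, edgeR adjusted p 0.435, 95% interval of the fold 0.807 to 2.15) and was not called, although both IP libraries lay above the input. With intronic reads added it was called higher (1.20, edgeR adjusted p 0.00435, within a range of 2.75e-05 to 0.786 over 7 alternatives). The zero of that fit is set over exonic and intronic reads together, so its folds cannot be read against those of the gene fit. The introns of CCL4 themselves had 3, 2 and 22 reads. The coding sequence alone, with 73, 16 and 20 reads, was called higher, at a log2 fold of 1.87 (SE 0.51, edgeR adjusted p 0.000648). DESeq2 did not call it (adjusted p 0.0749, within a range of 4.75e-06 to 0.0749 over 4 alternatives). The 3'UTR, with 30, 8 and 39 reads, had a log2 fold of -0.27 (edgeR adjusted p 0.676). The 5'UTR had 16, 5 and 3 reads, which gives a ratio of 5.92 (counting interval 1.77 to 31.0). The 3'UTR held 25.2% (17.7 to 34.0) and 27.6% (12.7 to 47.2) of the exonic IP reads and 62.9% (49.7 to 74.8) of the input reads, the layout seen for CCL3 at lower depth. Near-identical copies exist for both genes. CCL3L1 and CCL3L3 were matched to no row. CCL4L1 and CCL4L2 had 5 and 7 exonic reads in IP1, 0 and 0 in IP2 and 8 and 4 in the input.

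**Figure D2:**
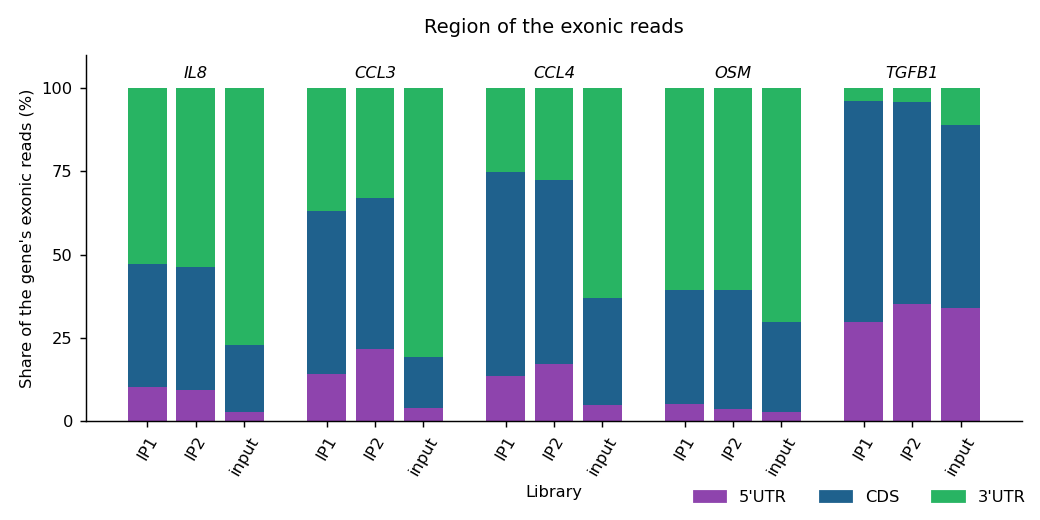
Stacked bars give the share (%) of each gene's exonic reads that lay in the 5'UTR, coding sequence (CDS) and 3'UTR, for IP1 and IP2 and the input. The 3'UTR share of IL8, CCL3 and CCL4 was lower in both IP libraries than in the input, most of all for CCL3 (37.0% and 32.9% against 80.8%); that of OSM was 60.6% and 60.7% against 70.3%.

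OSM encodes oncostatin M, an IL-6 family cytokine that signals through IL6ST with OSMR or LIFR and is induced by STAT5. It had 429, 112 and 37 exonic reads, or 134, 141 and 16.7 CPM. The IP libraries differed little from each other and were far above the input. The fold was 8.17 (95% interval 5.19 to 12.9), a log2 fold of 3.03 (SE 0.33, edgeR adjusted p 1.25e-11), with 2.93 and 3.01 in the single IP libraries. OSM ranked 60 of 10392, just under IL8 at 53, and the intervals of those genes overlapped.

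In OSM the 3'UTR was called higher along with the coding sequence. The 3'UTR had 260, 68 and 26 reads and a log2 fold of 3.41 (SE 0.43, edgeR adjusted p 1.39e-13), which ranked 18 of 7194. The coding sequence had 147, 40 and 10 reads and a log2 fold of 3.97 (SE 0.52, edgeR adjusted p 5.27e-13), which ranked 27 of 8169. The 5'UTR had 22, 4 and 1 reads, which gives a ratio of 22.0 (counting interval 3.61 to 902). The 3'UTR held 60.6% (55.8 to 65.3) and 60.7% (51.0 to 69.8) of the exonic IP reads and 70.3% (53.0 to 84.1) of the input reads, and these intervals overlapped. Intronic reads were 6 of 435 and 9 of 121 in the IP and 37 of 74 in the input. The 2 IP libraries differed in this: 1.38% against 7.44% of the OSM reads were intronic.

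IL1B encodes interleukin-1 beta, which is made as a precursor and released after cleavage by caspase-1. It had 43, 5 and 4 exonic reads and so missed the read filter. Its IP to input ratio was 7.42 in IP1, with a counting interval of 2.70 to 28.5, and 3.49 in IP2, with 0.751 to 17.6, an interval that includes 1. Without the read filter edgeR called IL1B higher (log2 fold 2.60, adjusted p 0.0174), and with intronic reads added it was called as well (1.90, adjusted p 0.00667). The latter fit sets its zero over intronic reads too, and the introns of IL1B had 6, 1 and 13 reads. CSF1 encodes the macrophage growth factor M-CSF. It had 36, 4 and 19 exonic reads, or 11.2, 5.05 and 8.59 CPM, so the input lay between the IP libraries. The log2 fold was 0.10 (SE 0.59, edgeR adjusted p 0.920), with 0.35 in IP1 and -0.67 in IP2. Its 95% interval, a fold of 0.476 to 2.43, leaves room for a change of either sign. The introns of CSF1 had 10, 2 and 38 reads and were called lower (log2 fold -1.91, SE 0.66, edgeR adjusted p 0.00892); this call was lost with scaling to library size alone (adjusted p 0.0850).

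TGFB1 encodes transforming growth factor beta 1, a suppressor of inflammation that is secreted in a latent complex. It had 421, 119 and 326 exonic reads, or 131, 150 and 147 CPM. The input lay between the IP libraries. The log2 fold was -0.08 (SE 0.25, edgeR adjusted p 0.847), and the 95% interval of the fold, 0.672 to 1.33, lies below every value of the interval for IL8 and OSM. Its coding sequence, with 279, 72 and 179 reads, had a log2 fold of 0.73 (SE 0.34, edgeR adjusted p 0.0538), below the median of 1.02 over all coding sequences; it was called with at least 30 reads (adjusted p 0.0101), within a range of 0.000237 to 0.535 over 5 alternatives. The 5'UTR had 126, 42 and 111 reads and a log2 fold of 0.43 (edgeR adjusted p 0.328), and the 3'UTR 16, 5 and 36 reads and -0.99 (edgeR adjusted p 0.155). The introns had 135, 52 and 644 reads and were called lower, at a log2 fold of -1.91 (SE 0.31, edgeR adjusted p 9.48e-09), close to the median of -1.93 over all introns. In the input, introns held 66.4% of the TGFB1 reads and 18.4% of the IL8 reads.

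**Figure D3:**
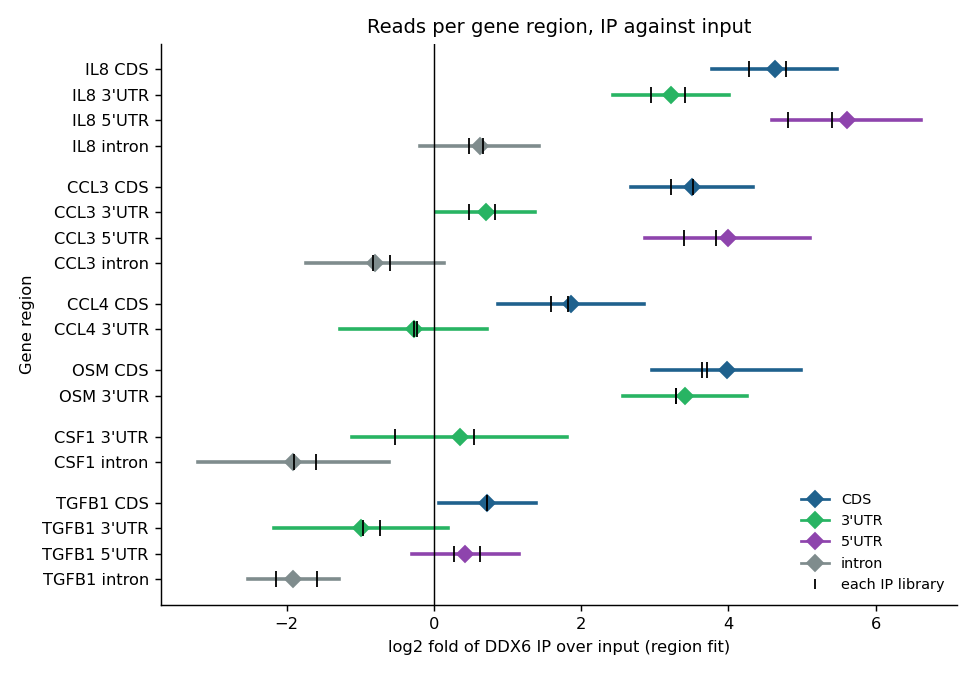
Diamonds give the IP against input log2 fold of each tested region of 6 members, bars its 95% interval and ticks the value of each IP library; zero is set over exonic and intronic regions of all genes. The exonic regions of IL8 and OSM lie above 3, the coding sequence and 5'UTR of CCL3 above its 3'UTR, and the regions of TGFB1 between -1.91 and 0.73; the 5'UTR of CXCL2, with 0 input reads, is left out.

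Across the members, 19 regions were tested, 9 were called higher, 2 lower and 8 neither, where 24.5% of all 28825 regions were called higher and 31.9% lower. Coding sequence was called higher in 4 of 5 (IL8, CCL3, CCL4 and OSM) and the 3'UTR in 2 of 6 (IL8 and OSM). The 5'UTRs of IL8, CXCL2 and CCL3 were also called higher, but with 7, 0 and 7 input reads they passed the read filter through the IP libraries alone, so their number is not read as a result; over the 16 regions with at least 10 input reads, 6 were called higher. Introns were called lower in 2 of 4 (CSF1 and TGFB1), beside 83.0% of all tested introns. Since coding sequence was called higher in 51.2% of all genes, 4 of 5 is no mark of these genes.

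The ratio of regions within a gene does not depend on library scaling. For each IP library the ratio of coding sequence to 3'UTR reads was divided by that in the input, with 0.5 added to each count. Genes entered with at least 10 reads over both regions in each library and at least 10 in each region over all libraries, which 5 members met. In log2 it was 2.77 and 2.83 for CCL3, 2.22 and 1.90 for CCL4, 1.78 and 1.42 for TGFB1, 1.42 and 1.37 for IL8 and 0.52 and 0.58 for OSM. All 5 were above zero in both libraries, as were 85.2% of 7479 genes on the mean, whose median was 0.83. CCL3, at a mean of 2.80, stood at percentile 98.7 of those genes and CCL4, at 2.06, at 94.0, while TGFB1 stood at 85.0, IL8 at 77.4 and OSM, at 0.55, at 34.6. The ratio of 5'UTR to 3'UTR gave a similar order, with 3.30 for CCL3, 2.74 for CCL4, 2.29 for IL8, 1.33 for TGFB1 and 0.41 for OSM, beside a median of 0.61 over 3809 genes. The OSM value rests on 1 input read in the 5'UTR and was -0.27 with 2 added to each count. For CCL3 the libraries gave 2.90 and 3.71. The ratio of exonic to intronic reads, divided by that in the input and in log2, was highest for OSM of the same 5 members. It was 4.81 (6.05 and 3.57 in the libraries, percentile 98.8), with 6 and 9 intronic OSM reads in the IP libraries. The other 4 lay between 2.39 and 3.12, beside a median of 2.51 over 9224 genes.

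The peaks called by the authors gave the members' positions within the transcripts, in build hg19. A peak was taken as significant at a log2 fold of at least 3 and a -log10 p of at least 3 against the input, which 11.5% of 123298 peaks of IP1 and 12.9% of 62411 peaks of IP2 met. Members held 75 peaks in IP1, 42 of them significant, and 41 in IP2, 23 of them significant. Without IL8 the counts were 18 of 51 and 10 of 28. Adjoining peaks of 1 gene share its reads and are not separate evidence.

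IL8 had 24 peaks in IP1 and 13 in IP2, all of them significant, which together cover 682 and 632 bases. They ran from the 5'UTR to the 3'UTR. In IP1 the median log2 fold was 5.92 over 5 peaks mostly in the 5'UTR, 5.53 over 12 in coding sequence and 4.67 over 7 in the 3'UTR. In IP2 it was 5.31, 4.44 and 3.52 over 1, 7 and 5. The order of the regions was thus the same in both libraries. The -log10 p was at 400, the cap of the lists, in 23 of the IL8 peaks of IP1 and 4 of those of IP2, so it does not rank them. The peak of IP2 at chr4:74606286-74606377, with 90 of its 92 bases in the 5'UTR and the rest in coding sequence, had a log2 fold of 5.31. Its counterpart in IP1 was split into shorter peaks, among them chr4:74606306-74606334 at 6.07.

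CCL3 had 11 and 7 peaks, of which 9 and 4 were significant. At its 5' end, chr17:34417397-34417460 in IP1 had a log2 fold of 4.05 and chr17:34417396-34417484 in IP2 one of 4.48. The most 3' peaks of CCL3 were not significant. In IP1 the last, chr17:34415708-34415801, was at 1.15. In IP2 the last, chr17:34415627-34415687, was at 2.58 with a -log10 p of 10.4, and the one before it, chr17:34415714-34415767, which lies within the last peak of IP1, at -0.37. The 3'UTR of CCL3 held 1 significant peak, next to the end of the coding sequence, in IP1 (chr17:34415918-34416003, 4.10). OSM had 6 and 4 peaks, all significant, with most in the 3'UTR (5 and 3). The libraries placed them differently: 1 OSM peak of IP1 overlapped a significant one of IP2, and 2 the other way. The overlap is at chr22:30659431-30659548 in IP1 (3.47).

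The other members had few significant peaks. CCL4 had 2 of 5 and 1 of 4, and none of them overlapped a significant peak of the other library. Its peaks at the 5' end had a log2 fold of 4.10 in IP1 and at most 2.78 in IP2. CXCL2 had 0 of 4 in IP1 and 1 of 1 in IP2, a 5'UTR peak at chr4:74964857-74964914 with a log2 fold of 5.23. CSF1 had 1 of 3 in IP1, in coding sequence at chr1:110466512-110466585 (4.01, with a -log10 p of 3.03 just past the threshold), and no peak in IP2. IL1B had 5 peaks in IP1 with log2 folds of 3.01 to 3.59, all short of the p threshold at a -log10 p of at most 2.17, and none in IP2. TGFB1 had 14 and 9 peaks and none was significant. Of the 14, 10 lay in coding sequence, with a median log2 fold of 1.84. CXCL3 had no peak.

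MIF encodes macrophage migration inhibitory factor, a constitutively made cytokine that signals through CD74. Apart from peaks shared with an overlapping gene model (6 in IP1 and 1 in IP2), it had 3 peaks in each library, and none was significant. They lay along a descending line from the 5' end to the 3' end. In IP1 the log2 fold was 1.18 in the 5'UTR peak (chr22:24236579-24236709), 1.05 in coding sequence and 0.07 at the 3' end. In IP2 it was 1.65, 1.23 and -0.03.

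Of the 42 significant member peaks of IP1, 31 overlapped a significant peak of IP2 by at least 1 base on the same strand, and 19 of the 23 of IP2 did so in return. Most lay in IL8, with 23 in IP1 and 13 in IP2, beside 7 and 4 in CCL3 and 1 and 2 in OSM. The share over all significant peaks was not computed, so these counts are not read as a trait of the members. When at least 50% of each peak had to overlap, the counts were 11 and 11. The authors' deposited list of 1587 reproducible peaks held 31 in the members, 23 in IL8, 6 in CCL3 and 2 in OSM, and none in the others. That list uses the same 2 libraries, so it is no further replicate.

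**Figure D4:**
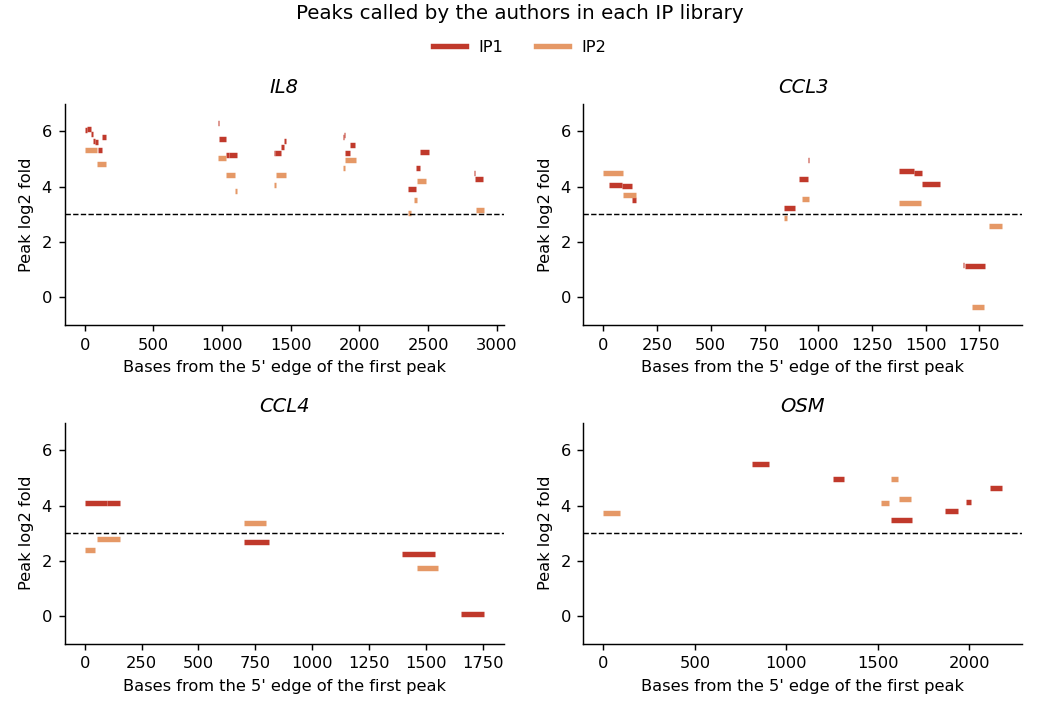
Each bar is a peak of IL8, CCL3, CCL4 or OSM in IP1 (dark) or IP2 (light), placed by genomic distance in bases from the 5' edge of the gene's first peak, introns included, at its log2 fold of IP over input; the dashed line marks a log2 fold of 3. All IL8 and OSM peaks lie above the line, and the CCL3 and CCL4 peaks nearest the 3' end lie below it.

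Other genes of the same systems were described from 3 lists. Of 111 other cytokines and chemokines, TNF among them, 78 were matched to a row, 66 had exonic reads in some library and 21 were tested; 8 were called higher, 2 lower and 11 neither, with a median log2 fold of 0.41. The smallest p belonged to TNF, to CCL2 and to HBEGF. CCL2, the monocyte chemokine MCP-1, had 747, 167 and 85 reads and a log2 fold of 2.53 (SE 0.29, edgeR adjusted p 6.22e-11), between CCL3 and OSM. HBEGF, an EGF-family growth factor, had 156, 39 and 21 reads and a log2 fold of 2.36 (SE 0.41, edgeR adjusted p 5.71e-06). The 2 called lower are named here after their values were seen. CCL5, the CC chemokine RANTES, had 280, 94 and 507 reads and a log2 fold of -1.19 (SE 0.24, edgeR adjusted p 8.99e-05), and CNTF, an IL-6 family cytokine, had 16, 3 and 39 reads and one of -1.91 (SE 0.57, edgeR adjusted p 0.00768).

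Of 22 receptors of the members, 20 were matched and 11 tested, 3 were called higher and 0 lower, with a median of 0.38. CXCR4, the CXCL12 receptor that MIF can also engage, had 1079, 218 and 236 reads and a log2 fold of 1.53 (SE 0.26, edgeR adjusted p 4.47e-06). TGFBR2, the ligand-binding TGF-beta receptor, had 353, 75 and 76 reads and one of 1.59 (SE 0.30, edgeR adjusted p 2.77e-05), while its ligand TGFB1 was not called. CCR1, a receptor for CCL3, had 197, 43 and 53 reads and a log2 fold of 1.29 (SE 0.35, edgeR adjusted p 0.00274).

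Of 18 release and latency factors of the members, 12 were tested, 1 was called higher and 0 lower, with a median of 0.00. The gene called was NLRP3, the inflammasome sensor upstream of caspase-1, with 465, 113 and 71 reads and a log2 fold of 2.16 (SE 0.30, edgeR adjusted p 1.98e-08). CASP1 itself had 67, 25 and 30 reads and a log2 fold of 0.87 (edgeR adjusted p 0.147), and THBS1, which can activate latent TGF-beta, 84, 16 and 36 reads and 0.56 (edgeR adjusted p 0.352). The share of tested genes called higher was 38.1% among the other cytokines, 27.3% among receptors and 8.33% among release and latency factors, beside 16.7% of all tested genes. These shares are descriptions, and the differences between lists were not tested.

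**Figure D5:**
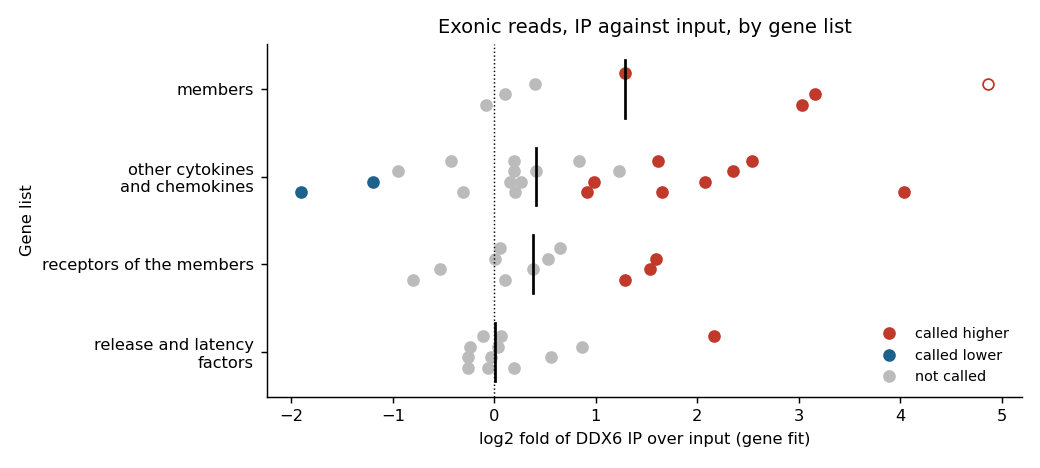
Each point is a tested gene at its log2 fold of IP over input, for the members and 3 lists; colours give the edgeR call, vertical bars the medians (1.29, 0.41, 0.38 and 0.00 from top to bottom), and the open point is CXCL2, whose fitted fold rests on 1 input read. Members other than CXCL2 span from -0.08 to 3.16 and other cytokines from -1.91 to 4.04, and NLRP3, at 2.16, is the 1 release factor that was called.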

How the data were processed

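The build was hg19 and the tools were STAR, SAMtools, cutadapt and UMI-tools, per the submitters' processing notes. Not given in the sources used here are their versions, the annotation, the strand setting, the counter and the peak caller. For each library the authors deposited a table of unnormalised counts by gene and region. Their deposited peak lists give each peak a -log10 p and a log2 fold of IP over input, and a deposited list of reproducible peaks gives both as well.

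CPM used TMM-scaled exonic totals. Exonic counts were summed per gene and tested with edgeR 4.0.16 (R 4.3.3; TMM, glmQLFit, glmQLFTest, Benjamini-Hochberg); DESeq2 1.42.0 was an alternative. A gene with a row in only some of the tables was set to 0 in the others, and one with a row in none was left out, not set to 0. Regions went into 1 further fit. The spread came from the 2 IP libraries, which leaves 1 residual degree of freedom and assumes the same spread for the single input. Log2 folds of single libraries used a prior count of 2. With 0 input reads a fold is against a floor of 3 reads per library; with few input reads a ratio has an exact 95% counting interval. In data simulated for the gene comparison (10167 genes) edgeR found 29.9% of the 2-fold and 90.2% of the 4-fold changes, with 6 false calls (5.08%). The simulation gave all genes the same spread, in IP and input alike, and changed 97 genes by 2-fold and 92 by 4-fold. Its rates therefore need not hold for the real calls. Beside markers and gene copies, genes named are all members, TNF and, per list, the 3 tested genes with the smallest p. CCL5 and CNTF were added after their values were seen. Members and lists were chosen with earlier results of these data known. Matched symbols and promoters came from RefSeq tables.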

Additional observations from a re-analysis of the deposited data

How the results depend on the processing

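The count of tested members called higher was 4 and ran from 3 to 6 under 6 alternatives (DESeq2, other read filters, intronic reads added, coding sequence and 3'UTR only); with scaling to library size alone it was 7, where the median of all tested genes moved to 1.24, and 2 values changed sign (TGFB1 exonic, 1.15, and the CCL4 3'UTR, 0.37). Relative to that shift TGFB1 stays near the median. The count of 6 came with intronic reads added, a fit whose zero is set over intronic reads too. Members tested were 5 with at least 30 reads, 6 with at least 10 input reads and 6 with coding sequence and 3'UTR only. They were 8 with intronic reads added, 9 without a filter and 7 in each other fit. Wherever the count was 3, CXCL2 was not tested or had no adjusted p, and without a filter IL1B was called as well. IL8, CCL3 and OSM were called higher in all 7 alternatives, but their adjusted p (edgeR or DESeq2) varied widely. It ran from 4.92e-36 to 0.0135 for IL8, from 2.14e-14 to 0.0243 for CCL3 and from 9.21e-23 to 0.0135 for OSM. The largest of each came with at least 10 reads in the input. CXCL2, whose call is not read as a result, was called in the 3 that gave it an adjusted p. The filter of at least 10 reads in the input was chosen after seeing the data. Member regions called higher were 9, with 7 to 13 under the alternatives. Those called lower were 2, with 1 under library size alone, under DESeq2 and under at least 30 reads. They were 3 without a filter and under at least 10 input reads. Member regions tested were 13 with at least 30 reads, 33 without a filter and 19 in each other fit. The cause of these differences between regions was not tested. Significant peaks were 42 and 23, with 41 and 22 at a -log10 p of at least 5 and 59 and 30 at a log2 fold of at least 1, and shared peaks fell from 31 and 19 to 11 and 11 at 50% overlap. The count of members with coding sequence above 3'UTR was 5 under the alternatives and without either IP replicate (5 to 5). With a single IP library left there is no test, so calls have no leave-one-out value; without IP1 the sign changed for CSF1 exonic (-0.67), the CSF1 3'UTR (-0.52) and TGFB1 exonic (0.03). No paired analysis was possible because a single input library stands against both IP libraries. Depth limits CXCL2, CXCL3, IL1B and CSF1, with at most 45 exonic reads in any library.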
